A study of Mus musculus with 20 samples.

Results

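Kinetochore, spindle checkpoint and cytokinesis genes were followed through early differentiation of C2C12, a mouse myoblast cell line that fuses into muscle fibres when serum is lowered, and after siRNA knockdown of Myolinc, a long noncoding RNA. The genes were taken by symbol from a list of 45 genes of cell division, without the Kif kinesins. Of these, 40 had a row in the arrays' expression tables among 20193 gene symbols, and Cenpk, Zwilch, Ube2c, Nusap1 and Foxm1 were not analysed here. The level of Myolinc itself was not analysed here, and how deep the knockdown went is not given. Gene expression was measured on Affymetrix arrays with 2 arrays per group, which the labels call biological replicates. In the scramble set, of 8 arrays, all cells were transfected with 10 nM siRNA and harvested at day 2 of differentiation, after a scramble control siRNA (siScr) or 1 of 3 siRNAs against Myolinc (siMyolinc.1, siMyolinc.2 and siMyolinc.3). In the time-course set, of 12 arrays, the same 3 siMyolinc groups at day 2 were set beside untransfected cells, taken from growth medium on day 0 (Undiff) and after 1 day (Day_1) and 2 days (Day_2) in low-serum medium with horse serum. The 6 siMyolinc arrays are the same hybridisations in both sets, which leaves 14 distinct arrays. The sets were summarised separately, so levels are compared only within a set, and all comparisons of siMyolinc with siScr or with untransfected cells share these 6 arrays.

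Mitosis needs a kinetochore on each chromosome, built on the centromere, that holds the spindle microtubules. The spindle checkpoint delays anaphase until every kinetochore is attached, after which the anaphase promoting complex releases separase, sister chromatids part and cytokinesis divides the cell. Most of these genes are transcribed mainly in G2 and mitosis and are held down in resting cells by the DREAM complex. Most are switched off as myoblasts leave the cell cycle to fuse. The 40 genes were arranged by role in 9 groups: checkpoint, chromosomal passenger complex, centromere and inner kinetochore, outer kinetochore, mitotic entry and centrosome, anaphase promoting complex and separase, condensin and chromosome, spindle and cytokinesis, and transcription factors.

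Values are log2 expression levels, and a difference of 1 is a change of 2-fold. Within a group, the SD between both arrays had a median of 0.08 over the members in each set. Differences were tested with limma across all genes of a set, and a gene was called at a Benjamini-Hochberg adjusted p under 0.05. The ± of a difference is its standard error. The check of cell identity found, of 7 myoblast genes, Myf5 at the 94.7th percentile of all genes in the scramble set, Ncam1, Cdh15, Des and Tmem8c at the 84.2nd, 81.1st, 79.8th and 70.9th, and Myog and Myod1 near the middle, at the 52.2nd and 49.8th. Of these 7 markers, 5 were called lower in the siMyolinc mean than with siScr, and the mean log2 level of the 7 ranged over 9.50 to 9.63 with siScr, 8.40 to 8.51 with siMyolinc.1 and siMyolinc.3, and 9.19 to 9.21 with siMyolinc.2. Of 5 macrophage markers, Cd68 (0.51 ± 0.08) and Cd14 (0.43 ± 0.09) were called higher, with a mean level of the list of 6.15 to 6.19 with siScr and 6.30 to 6.42 with the siMyolinc siRNAs, while Ptprc, Emr1 and Csf1r stayed at the 18.3rd, 16.7th and 24.6th percentile. None of the 4 adipocyte and none of the 4 endothelial markers were called against siScr. Between Undiff and Day_2, 4 of the 7 myoblast markers were called higher, led by Tmem8c, a gene of myoblast fusion (3.25 ± 0.09), and Myog, a factor of muscle differentiation (1.64 ± 0.10), and Myod1 was called lower (-0.25 ± 0.07). The mean level of the 7 was 9.73 to 9.74 at Undiff, 9.37 to 9.48 at Day_1 and 10.48 to 10.50 at Day_2. In the same comparison Cd14 (-0.39 ± 0.09), Cd68 (-0.34 ± 0.08) and the adipocyte marker Pparg (-1.05 ± 0.06) were called lower and the endothelial marker Tek (0.23 ± 0.07) higher, 2 of 5, 1 of 4 and 1 of 4 markers of their lists. The mean levels of the macrophage, adipocyte and endothelial lists were 6.79 to 6.89, 7.54 to 7.68 and 6.43 to 6.51 at Undiff, and 6.60 to 6.64, 7.29 to 7.32 and 6.47 to 6.47 at Day_2. The part of these shifts in the results was not tested.

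All 40 genes fell when differentiation began. Day_1 was lower than Undiff for 40 of 40 members, beside 21.1% of all genes called lower in that comparison, with a median difference of -1.96 over the members and 0.11 over all genes. Day_2 was also lower than Undiff for all 40, beside 15.2% of all genes called lower and 14.8% called higher, with a median of -1.23 against -0.03 over all genes. Between these days the levels rose again: 36 of 40 members were called higher on Day_2 than on Day_1 and none lower. Of all genes, 21.1% were called higher and 32.4% lower. The median difference was 0.71 over the members and -0.12 over all genes. The 4 that were not called were Cdc25b (-0.04 ± 0.06 (adjusted p = 0.561)), Cdc20 (0.11 ± 0.11 (adjusted p = 0.403)), Cdc25c (0.15 ± 0.18 (adjusted p = 0.48)) and Top2a (0.08 ± 0.09 (adjusted p = 0.434)). The value of Top2a is that of a dim transcript cluster, and a brighter cluster of the gene was 1.10 higher on Day_2 than on Day_1. Leaving out each array in turn kept the call of 27 of the 36. In 37 of 40 members both Undiff arrays lay above both Day_2 arrays and these above both Day_1 arrays, an order that 9.44% of all genes show. Shares regained are ratios of log2 differences, here and below, and not shares of expression. The median share of the day 1 fall that was regained by day 2 was 38.3%, with a range from -3.91% for Cdc25b to 64.0% for Spc25. Bulk RNA cannot tell fewer dividing cells from less RNA per cell, here or in any result that follows.

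**Figure D1:**
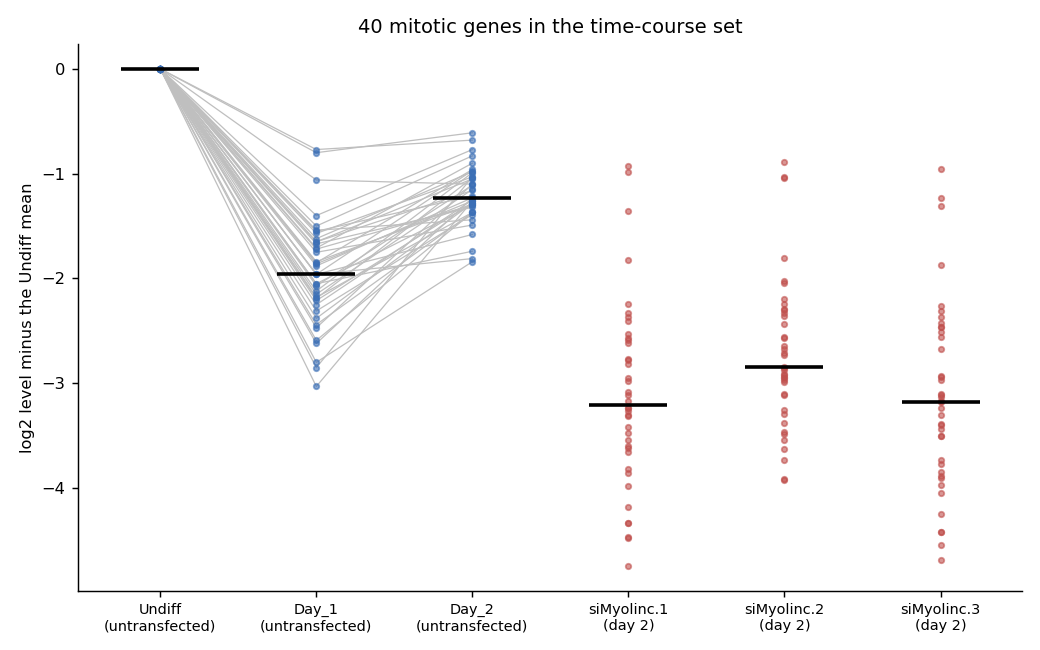
Mean log2 level of each of the 40 genes (points, 2 arrays per group) relative to its own Undiff mean in the time-course set, with the median over the genes as black bars and grey lines joining the points of a gene across the untransfected groups. The medians of the differences from Undiff are -1.96 at day 1 and -1.23 at day 2, and the points of the 3 siMyolinc groups lie lower still. Top2a is shown by its dim cluster.

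Against siScr at day 2, most of these genes were lower in the mean of the 3 siRNAs against Myolinc. Of 40 members, 30 fell in the mean of the 3 siRNAs and none rose, beside 5.45% of all genes called lower and 3.64% called higher, and the median change was -0.47 over the members and -0.01 over all genes. The largest falls were those of Bub1 (-1.32 ± 0.14), Prc1 (-1.20 ± 0.12), Top2a (-1.20 ± 0.08) and Ect2 (-1.03 ± 0.08), a checkpoint kinase, an organiser of the central spindle, a topoisomerase and a regulator of cytokinesis. Members that were not called were Espl1 (-0.29, adjusted p = 0.0572), Plk4 (-0.30, adjusted p = 0.054), Cenph (-0.25, adjusted p = 0.0693), Ndc80 (-0.24, adjusted p = 0.0745) and Mybl2 (-0.20, adjusted p = 0.275), and with smaller differences Bub3, Cenpe, Incenp, Spc24 and Cdc25b. In 25 of 40 members all 6 siMyolinc arrays lay below both siScr arrays, which is so for 10.4% of all genes. The test of the mean uses the spread between arrays of the same siRNA. Taking the 6 arrays as a single group lets the difference between siRNAs count as spread. In that fit 8 members were called, namely Cenpa, Cenpn, Cenpf, Aurka, Plk1, Cdc20, Top2a and Prc1. The share of all genes called was not computed for it or for the alternative fits that follow. Leaving out each array in turn kept the call of 17 of the 30. Of 8 such removals, 7 ended the call of Nuf2, 6 that of Birc5, 5 that of Mad2l1, 2 those of Ttk and Pttg1, and 1 those of Bub1b, Sgol1, Cenpi, Cdc25c, Spc25, Ncaph, Smc4 and Aspm.

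The single siRNAs differed in how far they went. Compared with siScr, siMyolinc.1 lowered 31 members (beside 7.13% of all genes called lower; median -0.61), siMyolinc.3 lowered 31 (5.43%; median -0.69), and siMyolinc.2 lowered 8 (0.629%; median -0.22). No member was called higher with siMyolinc.1, siMyolinc.2 or siMyolinc.3, beside 4.15%, 0.718% and 3.67% of all genes, though Cdc25b was with siMyolinc.2 under 4 alternatives given with that gene. The 8 genes called with all 3 siRNAs were Cenpa, Cenpn, Cenpf, Aurka, Plk1, Cdc20, Top2a and Tpx2. Another 20 were called with 2 siRNAs, 6 with 1 (Birc5, Cenph, Ndc80, Plk4, Pttg1 and Espl1) and 6 with none (Bub3, Incenp, Spc24, Cenpe, Cdc25b and Mybl2). Calls shared between siRNAs were not counted over all genes. The 3 comparisons use the same siScr arrays, so their calls are not independent. None of the 8 calls with siMyolinc.2 lasted through every removal of a single array, and the count was 0 without the second siScr array or either siMyolinc.2 array.

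**Figure D2:**
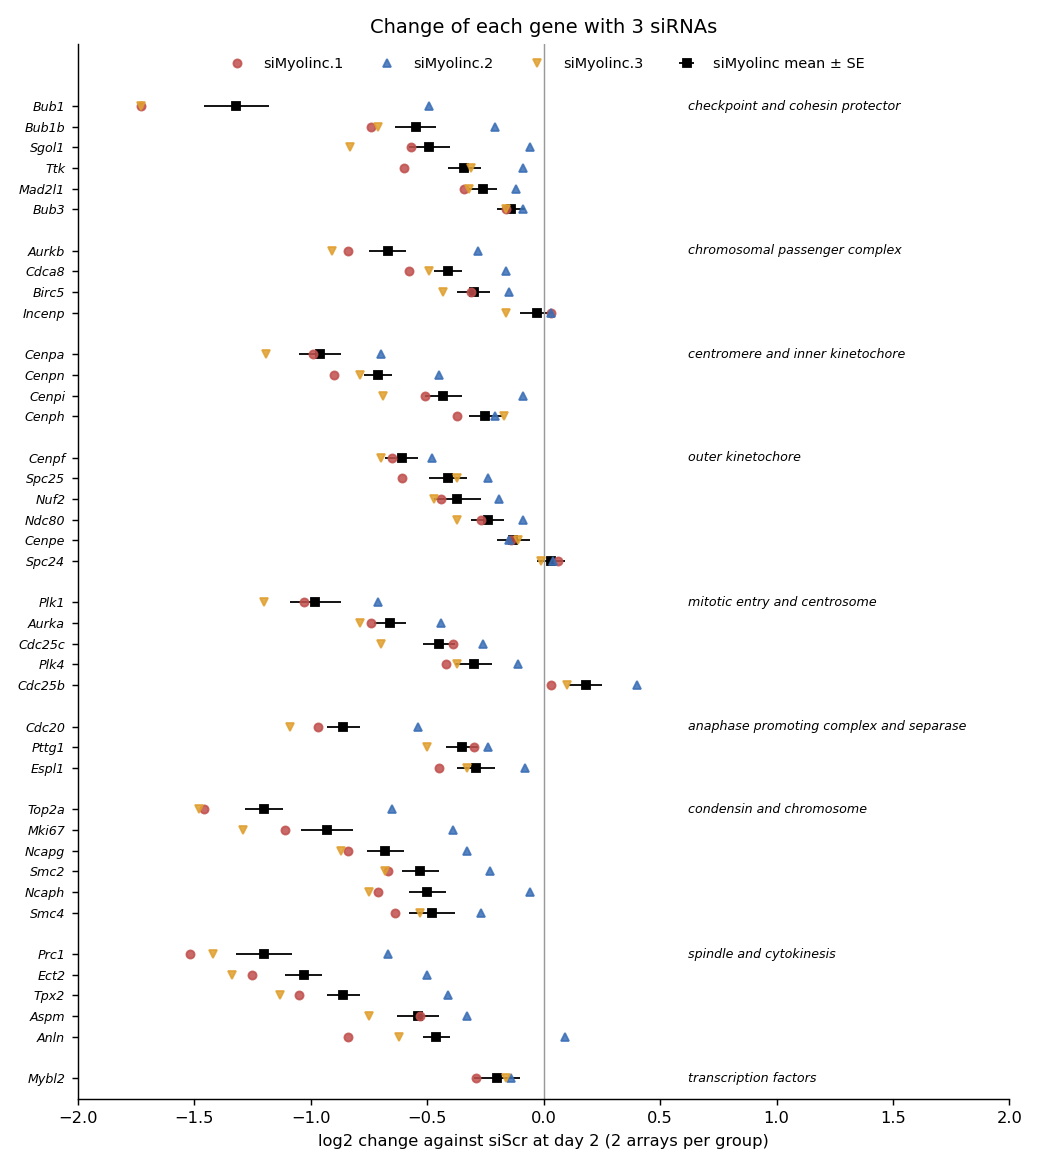
Log2 change against siScr at day 2 for the 40 genes, ordered by role, for siMyolinc.1 (circles), siMyolinc.2 (triangles), siMyolinc.3 (inverted triangles) and the mean of the 3 (squares, with bars of 1 standard error). For most genes the siMyolinc.2 point lies nearest to 0, and Bub1 shows the largest fall of the mean at -1.32.

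Because these genes moved together, the promoters were searched for the elements by which the DREAM complex and the MuvB-MYBL2-FOXM1 complexes (through the CHR) and NF-Y (through the CCAAT box) are known to bind mitotic genes. RefSeq windows (GRCm38.p6) from 250 bases before to 50 after the gene start were found for 34 of the 40 genes. The CHR TTTGAA, on either strand, was in 21 of 34 windows (61.8%) and in 18.1% of all 27025 promoters of the table. The CCAAT box, on either strand, was in 25 (73.5%) against 37.9%, and both elements were in 19 (55.9%) against 7.12%. The E2F site TTTGGCGC or TTTCCCGC was in 1 window, that of Ncapg (2.94% against 1.63%). Of the 21 genes with a CHR, 20 had 1 starting within 45 bases of the gene start, a share that was not computed for all promoters. The median change against siScr was -0.61 in the 21 genes with this CHR match and -0.30 in the 13 without it. Their ranges overlapped, at -1.20 to -0.14 and -1.32 to 0.18. The medians of Day_2 against Undiff were -1.23 and -1.21. Split by the CCAAT box, the medians against siScr were -0.55 in the 25 genes with it and -0.30 in the 9 without it. Those of Day_2 against Undiff were -1.28 and -1.05. A match of these letters is a description and not a bound site. Other forms of the CHR were not searched, so a gene without the match may still hold the element. Below are 150 bases, from 120 before to 30 after the start. They are given for 5 of the genes called with every siRNA and for Bub1, Prc1 and Bub3. Bub1 and Prc1 were taken for the largest changes, and Bub3 as a gene that was not called. Of the genes called with every siRNA, Tpx2 had no window, and Aurka and Plk1 are not printed. The CHR of Aurka and Plk1 starts at bases 33 and 31 after the gene start, beyond the printed stretch. Capitals mark matches to the CHR (TTTGAA or its reverse complement TTCAAA) and to the CCAAT box (CCAAT or its reverse complement ATTGG). The windows lie at chr2:127831830-127831979, minus strand (Bub1), chr7:131560250-131560399, plus strand (Bub3), chr5:30666766-30666915, plus strand (Cenpa), chr8:116921620-116921769, plus strand (Cenpn), chr1:189688057-189688206, minus strand (Cenpf), chr4:118437314-118437463, minus strand (Cdc20), chr11:99024160-99024309, minus strand (Top2a), and chr7:80294331-80294480, plus strand (Prc1).
Bub1: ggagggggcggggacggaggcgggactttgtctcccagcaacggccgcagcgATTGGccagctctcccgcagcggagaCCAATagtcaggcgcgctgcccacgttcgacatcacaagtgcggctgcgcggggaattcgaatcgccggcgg
Bub3: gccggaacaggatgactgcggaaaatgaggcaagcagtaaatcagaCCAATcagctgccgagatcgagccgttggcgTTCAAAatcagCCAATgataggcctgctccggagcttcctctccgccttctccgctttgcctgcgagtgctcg
Cenpa: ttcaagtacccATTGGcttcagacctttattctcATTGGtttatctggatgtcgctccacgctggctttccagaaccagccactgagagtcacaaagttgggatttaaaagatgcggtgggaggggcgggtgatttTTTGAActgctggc
Cenpn: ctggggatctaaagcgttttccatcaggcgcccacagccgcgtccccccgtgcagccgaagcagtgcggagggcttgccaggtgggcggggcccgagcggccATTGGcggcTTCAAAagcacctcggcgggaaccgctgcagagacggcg
Cenpf: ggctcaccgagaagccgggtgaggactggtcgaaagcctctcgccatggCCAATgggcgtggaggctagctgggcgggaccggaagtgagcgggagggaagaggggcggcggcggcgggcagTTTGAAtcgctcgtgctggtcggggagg
Cdc20: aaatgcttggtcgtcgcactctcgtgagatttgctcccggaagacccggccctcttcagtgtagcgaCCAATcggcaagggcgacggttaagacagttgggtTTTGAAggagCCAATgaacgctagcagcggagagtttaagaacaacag
Top2a: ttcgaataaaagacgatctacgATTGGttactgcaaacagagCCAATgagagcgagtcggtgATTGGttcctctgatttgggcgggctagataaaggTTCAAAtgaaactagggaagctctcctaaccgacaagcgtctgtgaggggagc
Prc1: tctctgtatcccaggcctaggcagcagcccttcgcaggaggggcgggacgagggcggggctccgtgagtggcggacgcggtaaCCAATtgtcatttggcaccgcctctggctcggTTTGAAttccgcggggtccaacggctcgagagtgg
In these letters Cenpn, Prc1, Cdc20 and Bub3 hold a CHR near a CCAAT box close to the start. Top2a holds a CHR downstream of 3 CCAAT boxes, and Cenpf and Cenpa hold the CHR just downstream of the start. Bub1 holds a pair of CCAAT boxes, with no TTTGAA or TTCAAA in its whole window. Bub3 holds both elements, as Prc1 and Top2a do, and its own difference from siScr was -0.14 ± 0.06 (adjusted p = 0.249).

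Among the checkpoint genes, BUB1 and TTK are kinases that load the checkpoint onto unattached kinetochores. BUB1B, BUB3 and MAD2L1 belong to the complex that holds back the anaphase promoting complex, and SGOL1 guards centromeric cohesin. In the scramble set Bub1 read 7.61 and 8.23 with siScr, 6.31 and 6.07 with siMyolinc.1, 7.38 and 7.49 with siMyolinc.2, and 6.11 and 6.26 with siMyolinc.3. The siMyolinc.1 and siMyolinc.3 arrays were lowest, siMyolinc.2 lay between them and siScr, and these levels did not overlap. The fall of the mean was 2.49-fold (-1.32 ± 0.14 (adjusted p = 0.000564)), and for siMyolinc.1, siMyolinc.2 and siMyolinc.3 alone the differences were -1.73 ± 0.17, -0.49 ± 0.17 and -1.73 ± 0.17. Bub1b read 6.95 and 6.77 with siScr, 6.05 and 6.19 with siMyolinc.1, 6.55 and 6.76 with siMyolinc.2, and 6.03 and 6.27 with siMyolinc.3, the same order with a smaller span, and its mean fell by 0.55 (adjusted p = 0.0061). Bub3, the smallest change of the group, read 9.63 and 9.60 with siScr, 9.49 and 9.43 with siMyolinc.1, 9.57 and 9.49 with siMyolinc.2, and 9.52 and 9.38 with siMyolinc.3. Every siMyolinc array of Bub3 lay below both siScr arrays, and its difference of -0.14 ± 0.06 did not pass the test. Mad2l1 (-0.26), Ttk (-0.34) and Sgol1 (-0.49) fell too, so that 5 of the 6 were called. Of these 5, Bub1 kept its call through every removal of a single array, while Mad2l1 lost it in 5 of 8 removals (adjusted p up to 0.127), Ttk in 2, and Bub1b and Sgol1 in 1 each. Over differentiation Ttk stood at 9.43 and 9.35 at day 0, 6.79 and 6.81 at day 1, and 8.09 and 7.96 at day 2, and Bub1b at 10.29 and 10.22 at day 0, 8.24 and 8.16 at day 1, and 9.01 and 8.89 at day 2. In both genes day 1 was lowest and no time points overlapped: Ttk fell 6.03-fold by day 1 (-2.59 ± 0.09) and was 2.58-fold below Undiff at day 2 (-1.37 ± 0.09), and Bub1b was at -2.05 ± 0.08 and -1.30 ± 0.08. Bub3 moved least here as well, at -0.80 ± 0.07 by day 1.

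AURKB is the kinase of the chromosomal passenger complex, which corrects faulty attachments and later directs cytokinesis, INCENP is its scaffold, and BIRC5 (survivin) and CDCA8 (borealin) bring it to the centromere. Aurkb read 8.19 and 8.22 with siScr, 7.37 and 7.37 with siMyolinc.1, 8.05 and 7.81 with siMyolinc.2, and 7.41 and 7.20 with siMyolinc.3. All siMyolinc arrays lay below siScr, those of siMyolinc.1 and siMyolinc.3 furthest, and the mean fell by 0.67 (1.60-fold; adjusted p = 0.00106). Cdca8 read 6.99 and 7.08 with siScr, 6.42 and 6.49 with siMyolinc.1, 6.88 and 6.87 with siMyolinc.2, and 6.59 and 6.51 with siMyolinc.3, again without overlap with siScr, and fell by 0.41 (adjusted p = 0.00285). Incenp did not follow: its arrays read 7.09 and 7.28 with siScr, 7.23 and 7.19 with siMyolinc.1, 7.22 and 7.22 with siMyolinc.2, and 7.05 and 7.01 with siMyolinc.3. The siScr arrays of Incenp lay 0.19 apart, those of siMyolinc.1 and siMyolinc.2 lay between them, and the difference was -0.03 ± 0.07 (adjusted p = 0.846). Birc5 was called at -0.30 ± 0.07 (adjusted p = 0.0365), a call that 6 of 8 removals of a single array ended. During differentiation Cdca8 stood at 10.28 and 10.20 at day 0, 7.93 and 7.93 at day 1, and 8.93 and 8.76 at day 2, and Birc5 at 10.13 and 10.09 at day 0, 7.95 and 7.92 at day 1, and 8.77 and 8.71 at day 2. Neither gene's time points overlapped, with falls of -2.31 ± 0.08 and -2.18 ± 0.10 by day 1 that had narrowed to -1.40 ± 0.08 and -1.37 ± 0.10 at day 2. Incenp, not called against siScr, fell with the others over differentiation, by 1.86 at day 1 and 1.26 at day 2.

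At the centromere and inner kinetochore, CENPA is the histone H3 variant that marks the centromere, CENPN binds its nucleosomes, and CENPH and CENPI belong to the inner kinetochore network that joins them to the outer plate. Cenpa read 8.27 and 8.43 with siScr, 7.42 and 7.30 with siMyolinc.1, 7.58 and 7.73 with siMyolinc.2, and 7.30 and 7.03 with siMyolinc.3. All 6 siMyolinc arrays of Cenpa lay at least 0.55 below the lower siScr array, and the mean fell 1.94-fold (-0.96 ± 0.09 (adjusted p = 0.000235)). Cenpn read 8.46 and 8.55 with siScr, 7.61 and 7.61 with siMyolinc.1, 8.05 and 8.06 with siMyolinc.2, and 7.74 and 7.70 with siMyolinc.3, with both arrays of each siRNA within 0.04 of each other, and fell by 0.71 (adjusted p = 0.000107). These are the 2 members of the group that were called with each siRNA by itself, siMyolinc.2 included (-0.70 ± 0.11 (adjusted p = 0.0165) and -0.45 ± 0.07 (adjusted p = 0.0165)). Cenph, dim in this set, read 5.38 and 5.22 with siScr, 4.90 and 4.95 with siMyolinc.1, 5.08 and 5.09 with siMyolinc.2, and 5.03 and 5.23 with siMyolinc.3, and its difference of -0.25 ± 0.07 was not called. Cenpi fell by 0.43 (adjusted p = 0.0107). Over differentiation Cenph stood at 9.14 and 8.77 at day 0, 6.28 and 6.01 at day 1, and 7.15 and 7.07 at day 2, and Cenpa at 11.59 and 11.59 at day 0, 9.81 and 9.86 at day 1, and 10.14 and 10.06 at day 2. Cenph lost 7.0-fold by day 1 and was still 3.58-fold below Undiff at day 2, the largest day 2 difference of all 40 genes (-1.84 ± 0.15). Cenpa regained little, with -1.75 ± 0.07 at day 1 and -1.49 ± 0.07 at day 2, or 15.1% of its fall.

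In the outer kinetochore, NDC80, NUF2, SPC24 and SPC25 form the complex that grips the microtubule, CENPE is a motor that carries chromosomes to the spindle equator, and CENPF is a large protein of the outer kinetochore. Against siScr, 3 of these 6 were called. Cenpf read 6.79 and 6.89 with siScr, 6.27 and 6.11 with siMyolinc.1, 6.31 and 6.42 with siMyolinc.2, and 6.08 and 6.19 with siMyolinc.3, all siMyolinc arrays below siScr, and fell by 0.61 (adjusted p = 0.000969). Spc25 read 5.99 and 6.26 with siScr, 5.50 and 5.52 with siMyolinc.1, 5.89 and 5.88 with siMyolinc.2, and 5.79 and 5.72 with siMyolinc.3, and fell by 0.41 (adjusted p = 0.0101). For Spc25 the 3 siRNAs were set apart by less than for Bub1, and the lower siScr array stood 0.10 above the highest siMyolinc array. Spc24, the partner of Spc25 in the complex, read 6.22 and 6.17 with siScr, 6.23 and 6.27 with siMyolinc.1, 6.28 and 6.17 with siMyolinc.2, and 6.13 and 6.24 with siMyolinc.3, with siMyolinc.1 just above siScr, the other siRNAs on either side of it, and a difference of 0.03 ± 0.06 (adjusted p = 0.852). Cenpe (-0.13) and Ndc80 (-0.24) were not called either, and Nuf2 was called at -0.37 ± 0.10 (adjusted p = 0.0459), a call that 7 of 8 removals of a single array ended. In untransfected cells Nuf2 stood at 10.36 and 10.35 at day 0, 7.28 and 7.36 at day 1, and 9.14 and 9.05 at day 2, and Cenpe at 10.05 and 9.99 at day 0, 8.0 and 8.35 at day 1, and 8.77 and 8.68 at day 2. Nuf2 had the deepest fall of all 40 genes at day 1, 8.18-fold (-3.03 ± 0.09), and was 2.40-fold below Undiff at day 2, while Cenpe went from -1.85 ± 0.14 to -1.30 ± 0.14. Spc25 regained the most of any member, from -2.86 ± 0.11 to -1.03 ± 0.11.

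For mitotic entry and the centrosome, PLK1 and AURKA are the kinases of mitotic entry and spindle assembly, PLK4 starts centriole duplication, and CDC25B and CDC25C are phosphatases that activate CDK1. Plk1 read 8.41 and 8.40 with siScr, 7.49 and 7.25 with siMyolinc.1, 7.61 and 7.77 with siMyolinc.2, and 7.40 and 7.0 with siMyolinc.3. Both siScr arrays were alike, all siMyolinc arrays lay at least 0.63 lower, and the mean fell 1.98-fold (-0.98 ± 0.11 (adjusted p = 0.000632)). Aurka read 7.82 and 7.79 with siScr, 7.16 and 6.97 with siMyolinc.1, 7.31 and 7.41 with siMyolinc.2, and 7.06 and 6.96 with siMyolinc.3, in the same order, and fell by 0.66 (adjusted p = 0.000549). Cdc25b stood against the rest: it read 8.26 and 8.07 with siScr, 8.20 and 8.19 with siMyolinc.1, 8.54 and 8.59 with siMyolinc.2, and 8.24 and 8.28 with siMyolinc.3. Its siMyolinc.2 arrays lay above both siScr arrays, those of siMyolinc.1 lay between both siScr arrays, and neither the mean difference of 0.18 ± 0.07 (adjusted p = 0.153) nor that of siMyolinc.2 (0.40 ± 0.08 (adjusted p = 0.0536)) was called. With siMyolinc.2 Cdc25b was called higher, at 0.40, with an intensity trend and robust prior (adjusted p = 0.0223), with the lowest 25% of levels left out (adjusted p = 0.0293) and with array weights (adjusted p = 0.0412), and at 0.50 without the first siScr array (adjusted p = 0.0347). Cdc25c, the paralogue, fell by 0.45 (adjusted p = 0.00599), and Plk4 was not called (-0.30 ± 0.08 (adjusted p = 0.054)). Over differentiation Cdc25c stood at 8.96 and 8.94 at day 0, 6.84 and 7.13 at day 1, and 7.43 and 6.86 at day 2, and Aurka at 10.87 and 10.90 at day 0, 8.92 and 8.95 at day 1, and 9.47 and 9.15 at day 2. The day 1 and day 2 arrays of Cdc25c overlapped, with -1.96 ± 0.18 and -1.81 ± 0.18 against Undiff, and Aurka rose from -1.95 ± 0.12 to -1.58 ± 0.12. Cdc25b stayed where day 1 had left it, at 10.05 and 10.04 at day 0, 8.98 and 8.99 at day 1, and 9.0 and 8.89 at day 2, and was the member whose day 2 mean was not above that of day 1. The group's median share regained was 19.3%, and Plk1 was its highest at 44.0%.

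**Figure D3:**
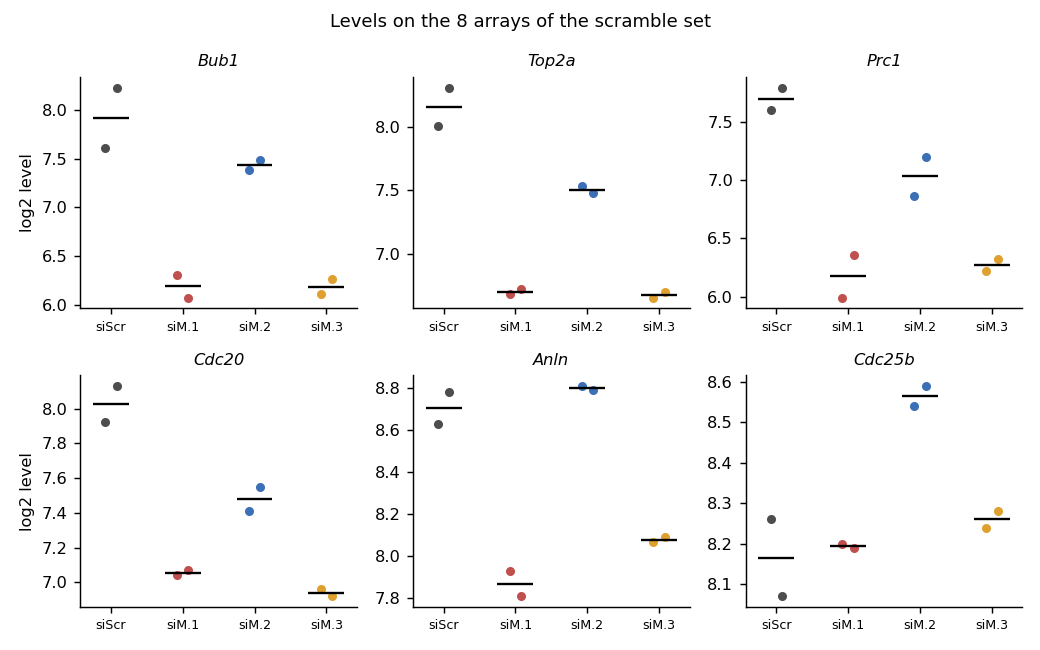
Log2 level on each of the 8 arrays of the scramble set (points) with group means (bars) for Bub1, Top2a, Prc1, Cdc20, Anln and Cdc25b, with siM for siMyolinc; each panel has its own axis, which does not start at 0. In Bub1, Top2a, Prc1 and Cdc20 the siMyolinc.2 arrays lie between siScr and the other siRNAs, while in Anln (8.81 and 8.79) and in Cdc25b (8.54 and 8.59) they lie above both siScr arrays.

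At the step to anaphase, CDC20 activates the anaphase promoting complex, PTTG1 (securin) is its substrate and the inhibitor of separase, and ESPL1 is separase, the protease that cuts cohesin. Cdc20 read 7.92 and 8.13 with siScr, 7.04 and 7.07 with siMyolinc.1, 7.41 and 7.55 with siMyolinc.2, and 6.96 and 6.92 with siMyolinc.3. No array of any siRNA reached the siScr range, and Cdc20 fell 1.82-fold in the mean (-0.86 ± 0.07 (adjusted p = 0.000137)), with siMyolinc.2 at -0.54 ± 0.09 (adjusted p = 0.0216). Pttg1 read 7.78 and 7.54 with siScr, 7.40 and 7.31 with siMyolinc.1, 7.45 and 7.39 with siMyolinc.2, and 7.18 and 7.15 with siMyolinc.3, all siMyolinc arrays below siScr, and fell by 0.35 (adjusted p = 0.0181). Espl1 read 6.97 and 7.08 with siScr, 6.59 and 6.56 with siMyolinc.1, 6.88 and 7.0 with siMyolinc.2, and 6.83 and 6.57 with siMyolinc.3, with a siMyolinc.2 array inside the siScr range and a difference of -0.29 ± 0.08 that was not called. In untransfected cells Cdc20 stood at 10.77 and 10.72 at day 0, 9.24 and 9.16 at day 1, and 9.38 and 9.22 at day 2, and Espl1 at 9.69 and 9.64 at day 0, 7.96 and 8.05 at day 1, and 8.42 and 8.29 at day 2. Cdc20 overlapped between day 1 and day 2, at -1.55 ± 0.11 and -1.44 ± 0.11 against Undiff, and had regained 6.84% of its fall. Espl1 went from -1.66 ± 0.10 to -1.31 ± 0.10. The median share regained over these 3 genes was 21.2%.

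On the chromosome itself, SMC2, SMC4, NCAPG and NCAPH are condensin subunits that compact chromosomes, TOP2A untangles sister DNA, and MKI67, the antigen of the Ki-67 proliferation stain, coats mitotic chromosomes. All 6 fell against siScr. Top2a read 8.01 and 8.31 with siScr, 6.68 and 6.72 with siMyolinc.1, 7.53 and 7.48 with siMyolinc.2, and 6.65 and 6.70 with siMyolinc.3. The arrays of siMyolinc.1 and siMyolinc.3 lay within 0.08 of each other and siMyolinc.2 in between, and the mean fell 2.29-fold (-1.20 ± 0.08 (adjusted p = 4.85e-05)). Mki67 read 7.77 and 8.16 with siScr, 6.91 and 6.80 with siMyolinc.1, 7.57 and 7.58 with siMyolinc.2, and 6.55 and 6.81 with siMyolinc.3, in the same order, and fell by 0.93 (adjusted p = 0.000789). Smc4, the smallest change of the group, read 8.85 and 9.24 with siScr, 8.38 and 8.43 with siMyolinc.1, 8.69 and 8.87 with siMyolinc.2, and 8.45 and 8.59 with siMyolinc.3, with a siMyolinc.2 array inside the siScr range, and fell by 0.48 (adjusted p = 0.019), a call that was lost without the second siScr array (adjusted p = 0.162). Over differentiation Smc2 stood at 10.81 and 10.78 at day 0, 8.29 and 8.54 at day 1, and 9.52 and 9.50 at day 2, and Ncapg at 10.55 and 10.57 at day 0, 7.92 and 7.96 at day 1, and 9.34 and 9.32 at day 2. Their falls of -2.38 ± 0.09 and -2.62 ± 0.10 by day 1 had narrowed to -1.28 ± 0.09 and -1.23 ± 0.10 at day 2, and the group's median share regained was 49.4%. Top2a is measured by a different transcript cluster in each set. Its cluster in the time-course table is dim, at 5.63 and 5.60 at day 0, 4.90 and 4.80 at day 1, and 4.97 and 4.90 at day 2, while the cluster of the scramble table read, in the authors' full matrix of the time-course arrays, 11.72 and 11.55 at day 0, 9.45 and 9.60 at day 1, and 10.76 and 10.48 at day 2. By that brighter cluster the differences from Undiff were -2.12 at day 1 and -1.02 at day 2, where the dim one gave -0.76 and -0.68, and in the scramble set the dim cluster changed by -0.18 against siScr where the bright one changed by -1.20.

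In the spindle and cytokinesis group, PRC1 bundles the microtubules of the central spindle, ECT2 is needed to start furrowing, ANLN (anillin) is the scaffold of the contractile ring, TPX2 activates AURKA on the spindle, and ASPM works at spindle poles. All 5 fell against siScr, with the largest median of the groups at -0.86. Prc1 read 7.60 and 7.79 with siScr, 5.99 and 6.36 with siMyolinc.1, 6.86 and 7.20 with siMyolinc.2, and 6.22 and 6.32 with siMyolinc.3. Both siMyolinc.2 arrays lay between siScr and the other siRNAs, and the mean fell 2.30-fold (-1.20 ± 0.12 (adjusted p = 0.000336)). Ect2 read 9.02 and 9.16 with siScr, 7.98 and 7.71 with siMyolinc.1, 8.59 and 8.59 with siMyolinc.2, and 7.66 and 7.84 with siMyolinc.3, with the same order and no overlap, and fell 2.04-fold (-1.03 ± 0.08 (adjusted p = 0.000125)). Anln read 8.63 and 8.78 with siScr, 7.93 and 7.81 with siMyolinc.1, 8.81 and 8.79 with siMyolinc.2, and 8.07 and 8.09 with siMyolinc.3. Its siMyolinc.2 arrays did not lie below siScr, at a difference of 0.09 ± 0.08 (adjusted p = 0.818), while siMyolinc.1 and siMyolinc.3 lowered it by -0.84 and -0.62. Tpx2 fell by 0.86 and Aspm by 0.54. In untransfected cells Tpx2 stood at 10.89 and 10.91 at day 0, 8.91 and 9.13 at day 1, and 9.75 and 9.59 at day 2, and Ect2 at 11.69 and 11.74 at day 0, 10.01 and 10.11 at day 1, and 10.63 and 10.47 at day 2. Neither overlapped between time points, and their differences from Undiff went from -1.87 ± 0.09 to -1.23 ± 0.09 and from -1.65 ± 0.09 to -1.16 ± 0.09.

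The single transcription factor measured, MYBL2 (B-MYB), joins the MuvB core to switch mitotic genes on, and is itself a target of E2F and DREAM. Mybl2 read 7.71 and 7.54 with siScr, 7.40 and 7.26 with siMyolinc.1, 7.47 and 7.50 with siMyolinc.2, and 7.28 and 7.64 with siMyolinc.3 in the scramble set. One siMyolinc.3 array stood between both siScr arrays, and the difference of -0.20 ± 0.10 (adjusted p = 0.275) was not called. Over differentiation it stood at 10.58 and 10.71 at day 0, 8.59 and 8.58 at day 1, and 8.97 and 8.83 at day 2, a fall of -2.05 ± 0.10 by day 1 of which 15.2% had been regained at day 2 (-1.74 ± 0.10).

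**Figure D4:**
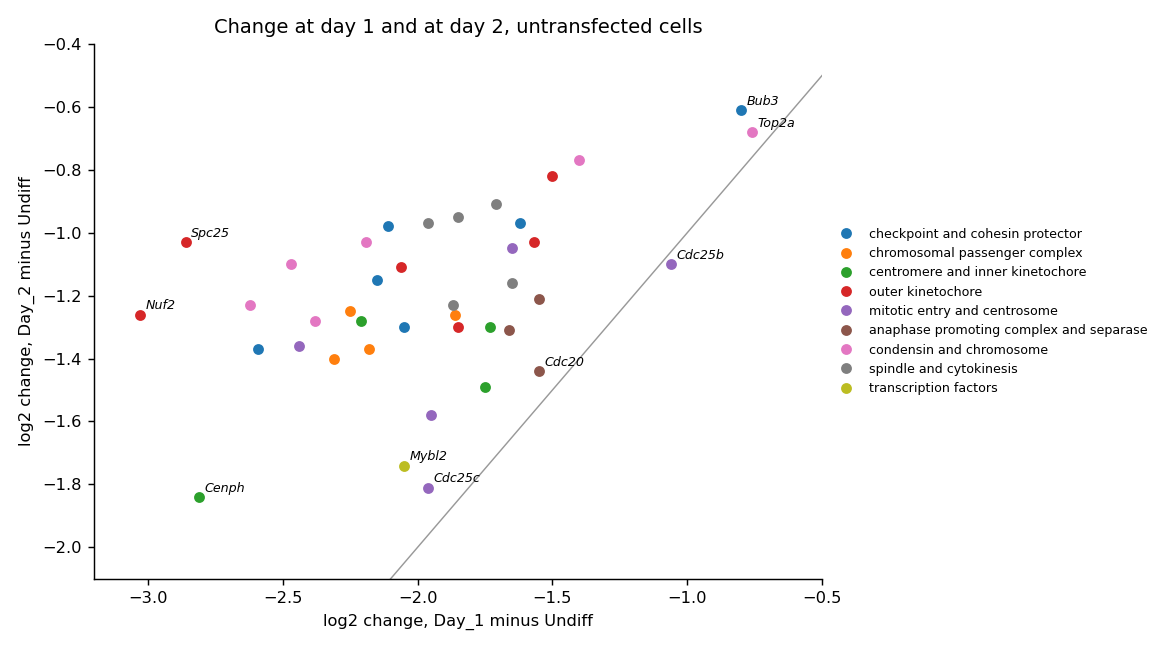
Log2 change from Undiff at day 1 (horizontal axis) and at day 2 (vertical axis) in untransfected cells, 1 point per gene and colours for the roles; the grey line marks equal change. All points except Cdc25b lie above the line, and Nuf2, at -3.03 and -1.26, and Spc25 lie furthest from it. Top2a is shown by its dim cluster.

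The 3 siRNAs were then compared with each other in the same fit. A difference among them was called for 18 of 40 members by the moderated F test, beside 4.04% of all genes. siMyolinc.1 was lower than siMyolinc.2 in 18 members (beside 3.26% of all genes) and siMyolinc.3 lower than siMyolinc.2 in 19 (2.68%), with no member higher in either (1.49% and 1.57% of all genes). Bub1 had the largest of these differences, at -1.24 ± 0.17 and -1.25 ± 0.17, and Anln (-0.93 and -0.72), Prc1 (-0.85 and -0.76) and Top2a (-0.80 and -0.83) followed for siMyolinc.1. Between siMyolinc.1 and siMyolinc.3 limma called 0 members and 0 of all 20193 genes (0.00%). At an unadjusted p under 0.05 that comparison held 7 of 40 members and 5.98% of all genes. In 32 members all siMyolinc.1 and siMyolinc.3 arrays lay below both siMyolinc.2 arrays (16.7% of all genes), and in 22 the arrays fell into the full order of siMyolinc.1 and siMyolinc.3, siMyolinc.2, siScr without overlap (4.73%). The myoblast marker levels given above lay in this order too. The count of 18 rests on the siMyolinc.2 pair, and was 5 without its first array and 4 without its second, 11 without the first siMyolinc.1 array, and 3 when the fit used the authors' full matrix.

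Set beside untransfected cells in the time-course set, the siMyolinc cells stood below each time point for most members. Their mean was lower than Day_2 for 40 of 40 members (beside 18.9% of all genes; median -1.76), lower than Day_1 for 37 (25.6%; median -0.89) and lower than Undiff for 40 (20.2%; median -3.07). The median over all genes lay between -0.07 and 0.05 in these comparisons. Bub1 stood at -3.16 ± 0.09 against Day_2, Prc1 at -3.15 ± 0.11, Mki67 at -3.12 ± 0.10 and Spc25 at -3.0 ± 0.09. Top2a is counted here by its dim cluster, at -0.40 against Day_2, while its brighter cluster stood at -3.08. Mki67, for instance, read 7.50 and 7.22 with siMyolinc.1, 8.15 and 8.25 with siMyolinc.2, and 7.12 and 7.45 with siMyolinc.3, all below 9.28 and 9.44 at day 1. Prc1 read 6.14 and 6.50, 7.17 and 7.51, and 6.31 and 6.46 in these groups, also below its day 1 arrays of 8.77 and 8.91. In 34 members the arrays fell into the order Undiff, Day_2, Day_1, siMyolinc from high to low with no overlap, which 1.72% of all genes show. The 6 others were Bub3, Cenph, Spc24, Cdc25b, Cdc25c and Cdc20. Against Day_1, Bub3 (-0.13 ± 0.06 (adjusted p = 0.0933)), Cenph (-0.31 ± 0.13 (adjusted p = 0.0706)) and Spc24 (-0.26 ± 0.11 (adjusted p = 0.0652)) were not called. Cdc25b came nearest to Day_2, at -0.14 ± 0.05 (adjusted p = 0.0414), with siMyolinc.2 arrays of 9.0 and 9.02 beside Day_2 arrays of 9.0 and 8.89. That call was ended by 10 of 12 removals of a single array (adjusted p up to 0.399), by the replicate block (adjusted p = 0.0526), and by 4 other settings, namely only the arrays compared, centring on the 75th percentile, a repeated quantile normalization, and the 6 siMyolinc arrays as a single group. Bub1 differed by -1.32 from siScr and by -3.16 from Day_2, and Incenp by -0.03 and -1.06, with the same siMyolinc arrays on both sides. The siScr cells were transfected and the Day_2 cells were not, and transfection and knockdown cannot be told apart in the comparisons with untransfected cells.

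How far a gene fell at the start of differentiation was set beside how far it fell with the siRNAs against Myolinc. Over the 40 genes the difference of the siMyolinc mean from siScr correlated with Day_1 minus Undiff at a Pearson r of 0.08 and a Spearman correlation of 0.16, and with Day_2 minus Undiff at -0.05 and -0.01. These contrasts share no array, and genes are not independent replicates. Without Top2a, which has different clusters in the sets, the first pair was 0.23 and 0.24 and the second 0.05 and 0.06. Over 20170 genes the same correlations were 0.14 and 0.07 with Day_1 minus Undiff, and -0.16 and -0.08 with Day_2 minus Undiff. Nuf2 stood at -3.03 at day 1 and -0.37 against siScr, and Ect2 at -1.65 and -1.03. With siScr, Nuf2 was dim, at 5.50 and 5.89, where Ect2 read 9.02 and 9.16. Spc25, Cenph and Ttk, with day 1 falls of -2.86, -2.81 and -2.59, also lay in the lowest 25% of levels of the scramble set. The part of such low levels in the correlations was not tested.

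Further genes of mitosis outside the 40 were counted in the same fits, in lists of 100 genes of which 86 were measured. Against siScr 27 of the 86 were lower and 1 higher, beside 5.45% and 3.64% of all genes, with a median of -0.18 where that of all genes was -0.01. The counts by list stand beside the same 5.45%. Of 20 other kinetochore and centromere genes 4 were lower, led by Casc5 (-0.99 ± 0.10), the platform for BUB1 at the kinetochore, and Kntc1 (-0.51 ± 0.08), a subunit of the complex that brings dynein there. Of 18 other genes of the checkpoint and the anaphase promoting complex 6 were lower and 1 higher, with Sgol2 at -0.95 ± 0.08 and Cdc16 at -0.32 ± 0.06. Of 22 other spindle and cytokinesis genes 13 were lower, with Racgap1, the partner of ECT2 at the central spindle, at -0.91 ± 0.07 and Spag5 at -0.82 ± 0.11. Among 14 other condensin and cohesin genes 2 were lower, with Ncapd2 at -0.36 ± 0.07, and Ncapg2 at -0.33 ± 0.12 was not called. Of 12 subunits of DREAM, MuvB and NF-Y 2 were lower, with Nfyc at -0.34 ± 0.08, and E2f5 at 0.28 ± 0.08 was not called. By Day_2 against Undiff 64 of the 86 were lower and 5 higher, beside 15.2% and 14.8% of all genes, with a median of -0.59 where that of all genes was -0.03. In that comparison the kinetochore genes Ska1 (-1.15 ± 0.18) and Kntc1 (-1.09 ± 0.07), Trip13 (-1.63 ± 0.07), an ATPase that disassembles the checkpoint complex, and Fbxo5 (-1.30 ± 0.15), an inhibitor of the anaphase promoting complex, fell. So did the spindle and cytokinesis list's Cdca2 (-1.44 ± 0.08) and Cdca3 (-1.39 ± 0.11), the cohesion factors Cdca5 (-1.26 ± 0.13) and Esco2 (-1.21 ± 0.12), and the MuvB subunits Lin9 (-0.84 ± 0.10) and Lin54 (-0.61 ± 0.07).

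The authors' deposited table gave the same differences by its own tests. At an unadjusted p under 0.05 it listed 29 of the 40 members lower for siMyolinc against siScr, beside 8.69% of all genes by that table. Against Undiff it listed 40 lower at day 1 (20.5% of all genes) and 40 lower at day 2 (16.4%), and 32 higher at day 2 than at day 1 (20.4%). For siMyolinc it listed 39 lower than Day 2 (19.2%), 37 lower than Day 1 (27.4%) and 40 lower than Undiff (20.4%).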

How the data were processed

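The deposited values are log2 expression levels per transcript cluster, which the authors computed with RMA; the submitters' processing notes name limma for their comparisons, and no version or genome build is given in the sources used here. Their tables hold 1 cluster per gene symbol for 20193 symbols, and per the file headers they also hold the authors' log2 differences and p-values. In 1 siMyolinc.3 column of the time-course set 23 cells, deposited by the authors as day numbers rather than log2 values, were set to missing, so those genes enter the fit without that array. Each set was fitted with limma (version 3.58.1, R version 4.3.3) with 1 coefficient per group and all its arrays, adjusted by Benjamini-Hochberg over all genes (two-sided, threshold 0.05). The siMyolinc mean weights the 3 siRNAs equally. The fit was tested on simulated data. Each group's 2 arrays limit the precision. Differences had a median standard error of 0.0710 for siMyolinc against siScr and 0.0801 for a pair of time points, and a p-value reflects only the variation between such arrays.

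The members, the role groups, the further lists and the tests were chosen with earlier results of these data known. Values on every array are given, per role, for the 2 members with the largest and the 1 with the smallest change against siScr and for the 2 with the largest change of Day_2 against Undiff. Of each further list the 2 largest changes in each of these comparisons are named. For promoters, the first window listed for a gene was used. Shared arrays were recognised by correlations of 0.933 to 0.949 between same-label arrays of the sets, after subtraction of cluster means, against at most 0.289 between other labels. Alternatives covered array scaling, weights, variance priors, filters, blocks, the full matrix and leaving out each array.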

Additional observations from a re-analysis of the deposited data

Results flagged for a closer look

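The moderated F test in limma, with Benjamini-Hochberg adjustment, compared the 3 siMyolinc groups. Levels differed in 18 of the 40 genes, beside 4.04% of all genes. In each of these 18 genes siMyolinc.1 and siMyolinc.3 lay below siMyolinc.2. The adjusted p-values were 0.0053 for Bub1, 0.044 for Bub1b, 0.0207 for Ttk and 0.0111 for Sgol1 among the checkpoint genes. In the passenger complex they were 0.0134 for Aurkb and 0.0246 for Cdca8, and in the inner kinetochore 0.0235 for Cenpi and 0.0155 for Cenpn. Cdc20 had 0.0189. The condensin and chromosome genes gave 0.0264 for Ncapg, 0.00752 for Ncaph, 0.0398 for Smc2, 0.0027 for Top2a and 0.0102 for Mki67. Among spindle and cytokinesis genes Tpx2 had 0.00235, Prc1 0.0179, Anln 0.000838 and Ect2 0.00403. The count of 18 was smaller with the authors' full matrix and without either siMyolinc.2 array, as given with the comparison of the siRNAs. The cause was not tested.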

How the results depend on the processing

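All directions of called differences held under every alternative run. Of 7498 values of single genes recomputed, 7149 kept their direction and side of the threshold, 302 were no longer called, 47 became called, among them Cdc25b as higher with siMyolinc.2 in 4, and 0 of the called ones changed sign. The share of all genes called was not computed for the alternatives, here or with the replicate number as a block. With the 6 siMyolinc arrays as a single group, whose spread includes that between siRNAs, 8 members were called against siScr in place of 30. For siMyolinc.2 against siScr, 8 by the reported fit, the count was 2 with only the arrays compared and 0 with the authors' full matrix, which tests more features, and it ranged from 0 to 6 when single arrays were left out. The F test among siRNAs called 3 with the full matrix, and 4 to 19 when single arrays were left out. When single arrays were left out, the counts ranged from 21 to 30 for the siMyolinc mean against siScr, 22 to 31 for siMyolinc.1, 24 to 29 for siMyolinc.3, 29 to 36 for Day_2 against Day_1, 39 to 40 for siMyolinc against Day_2 and 35 to 39 against Day_1, and stayed at 40 for Day_1, Day_2 and siMyolinc against Undiff. Centring arrays on the 75th percentile moved the median of all genes for Day_1 against Undiff from 0.11 to 0.26 and for Day_2 against Day_1 from -0.12 to -0.26. Under it 30 members were called higher at Day_2 than at Day_1 and 1, Cdc25b, was called lower (-0.18), as it was after a repeated quantile normalization (-0.19). Leaving out the lowest 25% of levels removed Cenph, Nuf2, Spc25 and Ttk from the scramble set and Top2a from the time-course set. Precision is limited by the 2 arrays of a group, and single-siRNA differences had a median standard error of 0.0869.

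Groups share replicate numbers 1 and 2 in the labels, which do not say whether these numbers pair the samples. Differences between replicates correlated across genes at -0.11 to 0.22 over 6 pairs of groups in the scramble set. In the time-course set the range was -0.17 to 0.24 over 15 pairs. Each group gives only 1 such difference, so these values cannot decide whether the samples are paired. With the replicate number as a block, the members called were 29 for the siMyolinc mean, 32 for siMyolinc.1, 6 for siMyolinc.2 and 30 for siMyolinc.3 against siScr, 18 for the differences among siRNAs, 40 each for Day_1, Day_2 and siMyolinc against Undiff, 36 for Day_2 against Day_1, and 39 and 37 for siMyolinc against Day_2 and Day_1.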
